A study of Mus musculus with 47 samples.

Results

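The 10 genes described here, *Nfkbia*, *Nfkbie*, *Tnfaip3*, *Nfkb1*, *Nfkb2*, *Relb*, *Birc3*, *Traf1*, *Bcl3* and *Icam1*, are transcriptional targets of NF-κB, and most of them feed back on it. They were taken by name from a table of read counts for 56748 genes, in which all 10 were present. RNA was sequenced in bulk from B78-D14 cells, an amelanotic *Cdkn2a*-/- mouse melanoma line derived from B16, and from pieces of the tumors that such cells formed under the skin of immunocompetent, young adult male C57BL/6 mice. Mutant cells carried a base-edited G>A change that truncates *Mt-Nd5*, a mitochondrially encoded subunit of respiratory complex I, at m.11,944 or m.12,436, in the stated percentage of their mtDNA copies (heteroplasmy). The groups were m.11,944 60% cells and control cells (4 cultures each) and tumors of m.12,436 60% (7), m.12,436 40% (7) and control cells (4), all untreated. Cultures and tumors therefore carried different mutations, so that the setting and the mutated base cannot be told apart in any contrast between them. A tumor piece also holds host cells, and its labels do not say how much of it is melanoma.

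NF-κB is a family of dimeric transcription factors that inhibitory IκB proteins hold in the cytoplasm. Signals from receptors for cytokines, lymphotoxin, CD40 ligand or microbial products lead to degradation of the inhibitors, and the freed dimers move to the nucleus. Among the first genes switched on are the inhibitors themselves and the deubiquitinase gene *Tnfaip3*, which end the response, so that their RNA is widely used as a readout of pathway activity. The route is active in many melanomas and in the macrophages, lymphocytes and endothelial cells that surround them.

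The genes share NF-κB response elements in textbook accounts, and 5 of the 10 promoters held a match to the NF-κB consensus decamer on either strand in the 250 bases before the annotated start of the canonical transcript (GRCm39, GENCODE). Over 21630 protein-coding genes, 7.61% of windows of that length held one. The matches are printed because an NF-κB site near the start is what marks a gene as a possible direct target. Each is given with up to 10 bases on either side, 5′ to 3′ on the strand of the gene, with the decamer in capitals.
Nfkbia: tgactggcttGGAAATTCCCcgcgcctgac
Nfkbie: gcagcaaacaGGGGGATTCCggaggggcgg
Tnfaip3: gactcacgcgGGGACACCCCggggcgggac
Relb: gtgagcagcgGGGGTTTTCCcattcccttt
Icam1: aaggagaGGAAACCCCCccataaggcg
These windows lie at chr12:55539442-55539471, chr17:45866510-45866539, chr10:18891264-18891293, chr7:19363441-19363470 and chr9:20926422-20926448, respectively. *Nfkbie* and *Icam1* are on the plus strand and the other three on the minus strand. The match began 29 bases before the start in *Nfkbia*, 37 in *Relb*, 86 in *Nfkbie*, 97 in *Tnfaip3* and 243 in *Icam1*. In *Nfkb1*, *Nfkb2*, *Birc3*, *Traf1* and *Bcl3* these letters were not in the window, which says nothing of sites elsewhere. A match is a description of sequence, and binding was not measured.

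The 26 libraries held between 16475735 and 36173502 counted reads. Values are given as CPM (read counts scaled to a common total), scaled by TMM within the 8 cultures or within the 18 tumors. A gene was called when its edgeR quasi-likelihood p, adjusted by Benjamini-Hochberg over all genes tested, was below 0.1. Cultures nearly lacked leukocyte RNA: 6 leukocyte markers (*Ptprc*, *Cd53*, *Laptm5*, *Coro1a*, *Itgb2* and *Tyrobp*) summed to between 0.731 and 1.50 CPM in all 8, against 528 to 1079 CPM in the tumors. The 7 melanocytic markers (*Mitf*, *Sox10*, *Pmel*, *Mlana*, *Tyr*, *Dct* and *Tyrp1*) were low throughout. They summed to between 7.90 and 23.3 CPM in the cultures, where 1 of the 7 (*Mitf*) reached 10 reads in every library and *Tyr*, which encodes the melanin-forming enzyme tyrosinase, was at 0. In the tumors they summed to between 15.2 and 28.1 CPM, except in control tumor 003, where the sum was 66.2 CPM. Without that tumor, 66 in place of 374 genes were called between m.12,436 60% and control tumors and none of the 10 was.

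The first comparison asked whether the pathway's readout genes differed between m.11,944 60% and control cells in culture, where leukocyte markers were nearly absent. None of the 8 genes that passed the filter on low counts was called by edgeR, DESeq2 or limma-voom, and 1 (*Birc3*) had an unadjusted edgeR p below 0.05. Over all 12930 genes tested, 0.0387% (5 genes) were called. *Nfkbia*, which encodes the IκBα inhibitor, was measured at 18.3, 19.6, 42.7 and 33.1 CPM in mutant cultures 1 to 4 and at 16.2, 14.4, 40.3 and 34.8 CPM in control cultures 1 to 4. The groups overlapped, and cultures 3 and 4 were the high ones in both. Its log2 fold change was 0.10 (95% CI -0.84 to 1.05, n = 4 and 4; adjusted p = 1.0, edgeR).

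The inhibitor gene *Tnfaip3* was likewise high in culture 3 of both groups, with 6.10 CPM in mutant culture 3 and 6.03 CPM in control culture 3, and between 2.07 and 3.02 CPM in the other 6. *Relb*, the transactivating subunit of the alternative pathway, ran the opposite way. It stood at 21.3, 21.4, 9.48 and 9.66 CPM in mutant cultures and 27.6, 26.4, 8.05 and 11.2 CPM in control cultures, so that cultures 1 and 2 were the high ones. *Nfkb2*, which encodes the precursor of the partner of RelB, ranged from 72.1 to 103 CPM in mutant and from 65.3 to 127 CPM in control cultures, lowest in culture 3 of each. *Nfkb1*, the precursor of the DNA-binding partner of RelA, varied least, between 97.5 and 125 CPM over the 8 cultures. The plot of the cultures shows these levels, with lines that join cultures of one number.

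**Figure D1:**
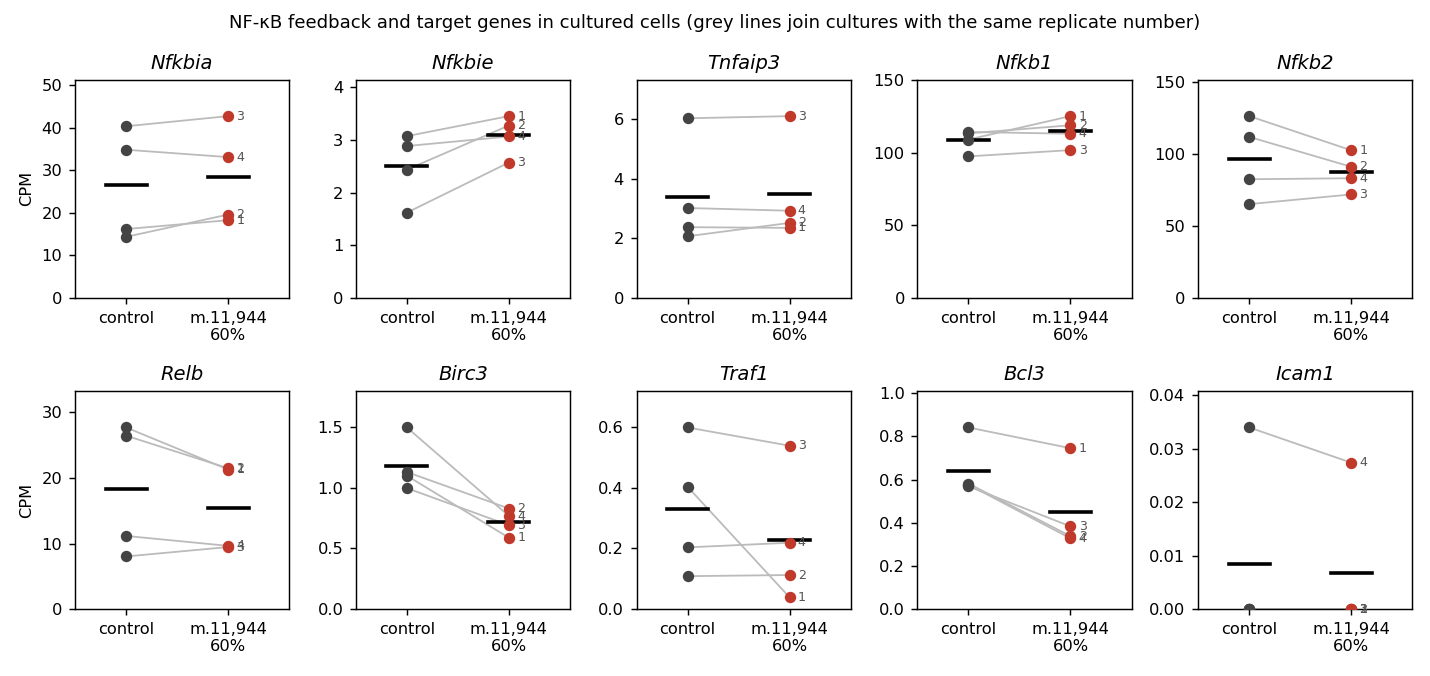
CPM of each of the 10 genes (vertical axes, from 0) in the 4 control and 4 m.11,944 60% cultures; points are cultures, black bars group means, and grey lines join cultures of the same number. *Nfkbia* and *Relb* split by number in both groups, whereas every mutant culture lies below every control culture for *Birc3*.

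Over all genes, cultures 1 and 2 of a group were alike, as were 3 and 4. A chi-square of their counts per degree of freedom was 9.10 and 25.1 for these pairs in mutant cultures. In control cultures it was 12.7 and 45.1. Across the pairs it was at least 141 in mutant and 206 in control cultures. The fits counted all 4 as separate replicates. Same-numbered cultures deviated together from their group means over all genes, so a second fit took the number as a block. With it 919 genes, 7.11% of those tested, were called, and again none of the 8. The largest difference among the 8 was in *Birc3*, which encodes a ubiquitin ligase that associates with TNF receptor complexes through TRAF proteins. It was measured at 0.588, 0.828, 0.691 and 0.766 CPM in mutant cultures and at 1.10, 1.13, 0.995 and 1.49 CPM in control cultures, from 15 to 44 reads a library. The groups did not overlap, which held for 3.48% of all genes tested. Its log2 fold change was -0.71 ± 0.23 (SE; 95% CI -1.23 to -0.18; adjusted p = 1.0, edgeR), and -0.71 with the block (adjusted p = 0.113, edgeR). An unadjusted p below 0.05 was reached by 4.11% of all genes in the fit without the block.

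*Bcl3*, an atypical IκB protein that acts in the nucleus as a coregulator, was lower in each of the 4 mutant cultures than in the control of the same number. It was at 0.745, 0.339, 0.384 and 0.328 CPM against 0.841, 0.582, 0.569 and 0.577 CPM, from 9 to 23 reads, a log2 fold change of -0.52 (95% CI -1.29 to 0.25; adjusted p = 1.0, or 0.271 with the block, edgeR). *Nfkbie*, which encodes the IκBε inhibitor, was higher in each of the 4 pairs, at 3.45, 3.27, 2.57 and 3.06 CPM in mutant and 3.07, 2.44, 1.62 and 2.88 CPM in control cultures. Its log2 fold change was 0.31 (95% CI -0.23 to 0.84; adjusted p = 1.0, or 0.272 with the block, edgeR). Neither difference was past the threshold.

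*Traf1*, an adaptor of TNF receptor signaling, and *Icam1*, an adhesion molecule that leukocytes bind through integrins, were too low in culture to be tested. *Traf1* had between 1 and 21 reads a library. *Icam1* had no read in 3 of the 4 cultures of each group and 1 read in the remaining culture, so that a difference was not detectable at this depth. Of 71 further pathway genes listed by role (ligands, receptors, adaptors and kinases, the subunits *Rela* and *Rel*, other inhibitors and other targets), 48 were tested in culture and 0 called (edgeR), with 1 of them at an unadjusted p below 0.05. The ligand genes *Tnf* and *Il1b* had no read in any of the 8 cultures. The cells did express receptors and the RelA subunit: in control cultures *Tnfrsf1a*, the main TNF receptor, was at 97.9 ± 10.5 CPM, *Ltbr*, the lymphotoxin receptor, at 73.8 ± 7.33 CPM and *Rela* at 112 ± 1.98 CPM (SD, n = 4).

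The next comparison set control tumors beside control cells, which gives the levels from which the tumor contrasts start. All 10 genes were called higher in the tumors, where 65.2% of the 15047 genes tested were called and 35.3% were called higher. All 10 also had every tumor above every culture, as had 56.9% of the genes tested. Fewer cells of a type and less RNA per cell cannot be told apart in such bulk samples, and the host cells in a tumor piece cannot be told apart from a change in the melanoma cells. *Icam1* and *Traf1* passed the filter only through the tumors, so their place in these counts was fixed by their near absence in culture, and 8 genes carry the result.

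The transcription factor genes differed least. The log2 fold change was 0.47 for *Nfkb1*, 0.58 for *Nfkb2* and 1.00 for *Relb* (adjusted p = 0.00205, 0.029 and 0.0406, edgeR), that is 1.39, 1.49 and 2.00 times the level in culture. The inhibitors spread wider, with 3.32-fold for *Nfkbia*, 3.61-fold for *Tnfaip3* and 8.62-fold for *Nfkbie*. The gene of the atypical IκB protein, *Bcl3*, was 51.1-fold higher (95% CI 37.1 to 70.4). *Birc3* was 14.9-fold higher (10.8 to 20.7) and *Traf1* 25.7-fold (12.9 to 51.0). *Icam1* counted 1604 reads over the 4 control tumors and 1 read over the 4 control cultures, a ratio of 1496 after scaling by library size, with an exact 95% interval of 268 to 59143 that covers counting error only.

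Per kilobase of exon, and with all 26 libraries on one TMM scale, *Nfkbia* had the highest level of the 10 in both settings. Length was the union of all annotated exons, from 1937 bases for *Nfkbia* to 12848 for *Nfkb1*, and the ranks between genes depend on it. Without that division *Nfkb1* (126 CPM) and *Nfkb2* (112 CPM) stood above *Nfkbia* (30.6 CPM) in control cells. Per kb, *Nfkbia* was at 15.8 ± 7.82 CPM in control cells and 51.4 ± 8.10 in control tumors (SD, n = 4 each). *Nfkb2* followed with 14.2 ± 4.11 and 20.7 ± 1.13 CPM per kb, and *Nfkb1* with 9.78 ± 0.633 and 13.3 ± 0.576. In culture the leading pair did not differ beyond their spread. *Relb* came next in both settings, with 4.17 ± 2.32 CPM per kb in cells and 8.17 ± 0.712 in tumors. The lower ranks were reordered: *Bcl3* stood at rank 8 in control cells, at 0.142 ± 0.0305 CPM per kb, and at rank 5 in control tumors, at 7.11 ± 0.998. *Icam1* went from rank 10, at 0.00196 CPM per kb, to rank 7, at 2.89 ± 0.620. *Bcl3* and *Relb* lay within their joint spread in the tumors, as did *Birc3* (2.30 ± 0.382) and *Icam1*. The plot of levels per length shows both orders.

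**Figure D2:**
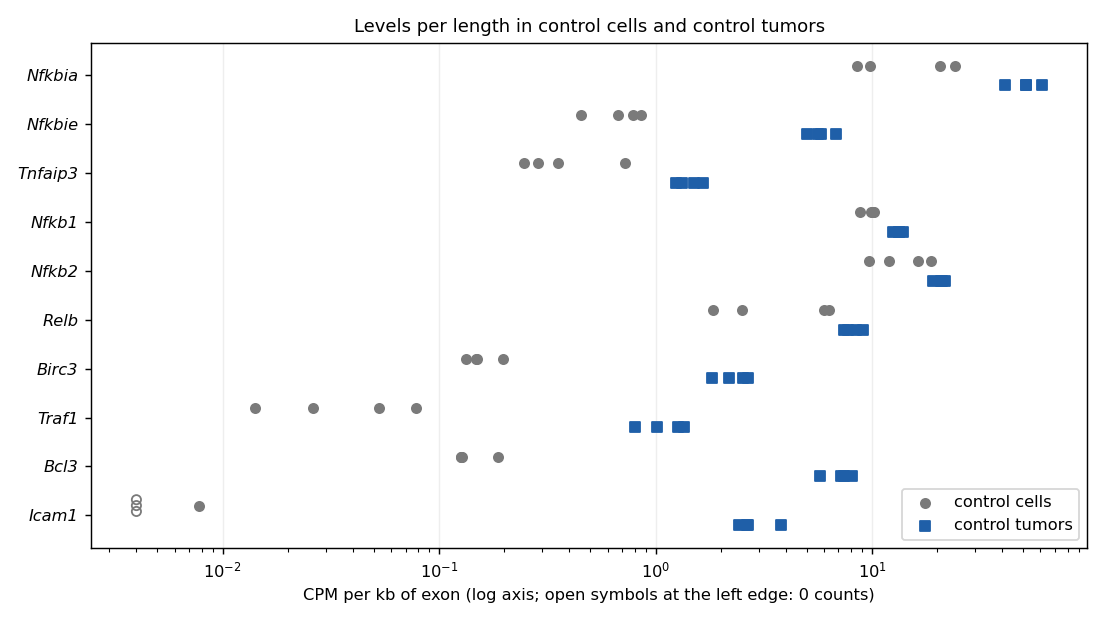
CPM per kb of exon on a log axis for each gene in the 4 control cultures (grey circles) and 4 control tumors (blue squares), with libraries at 0 counts drawn as open symbols at the left edge. Tumors lie to the right of cultures for all 10 genes, by little for *Nfkb1* and by most for *Icam1*.

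Of the 71 further pathway genes, 62 could be tested in this contrast, with 40 higher and 14 lower (edgeR). Over all genes tested, 65.2% were called and 35.3% were called higher. The 40 and 14 were not split by whether a gene was testable in culture. Only 48 of the pathway genes were testable within the cultures, and for the others, which entered through the tumors, the direction was fixed by the filter. This holds for the ligands, of which only *Tnfsf12* was testable in culture. *Il1b* stood at 13.3 ± 1.66 CPM and *Tnf* at 2.67 ± 0.533 CPM in the control tumors (SD, n = 4). Of 9 receptors tested, 6 were higher and 2 lower, and *Ltbr* did not pass the threshold (0.08; adjusted p = 0.530, edgeR). The other subunits were both higher, *Rela* by 0.21 and *Rel*, a subunit typical of lymphoid and myeloid cells, by 1.92 on the log2 scale. Markers of host cells moved with them. From control cultures to control tumors the leukocyte markers went from 0.731 to 1.32 CPM to 528 to 741 CPM, 7 macrophage markers from 9.53 to 15.5 CPM to 923 to 1173 CPM, and 5 endothelial markers from 0.0731 to 0.455 CPM to 152 to 230 CPM. The 6 T and NK cell markers had no read in culture and summed to between 7.64 and 25.7 CPM in the tumors. The part of these cells in the levels of the 10 genes was not tested.

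The tumor comparison asked whether these genes moved with the heteroplasmy of the graft. In m.12,436 60% against control tumors, 0 of the 10 were called by edgeR, DESeq2 or limma-voom, beside 2.31% of the 16213 genes tested (374 genes). One, *Icam1*, had an unadjusted edgeR p below 0.05, as had 16.3% of all genes. The median log2 fold change of the 10 was 0.10 and 8 of 10 were positive, where 49.4% of all genes were positive and their median was -0.003. None of the 10 separated the groups, and 4.07% of all genes did.

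*Icam1* was measured at 28.4, 18.5, 15.1, 27.7, 13.6, 16.4 and 29.9 CPM in m.12,436 60% tumors 1 to 7. Control tumors 001 to 004 were at 14.0, 20.0, 12.9 and 14.0 CPM. The m.12,436 40% tumors ran from 12.4 to 19.1 CPM with a median of 15.9. Tumors 1, 4 and 7 of the 60% group lay above every other tumor, and the remaining 4 lay within the range of the controls. The log2 fold change over control was 0.49 ± 0.22 (SE; 95% CI 0.04 to 0.94; adjusted p = 0.268, edgeR), and over m.12,436 40% it was 0.46 ± 0.18 (95% CI 0.08 to 0.84; adjusted p = 0.255).

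*Traf1* had a like order, with 14.5, 14.3, 10.1, 17.6, 6.61, 8.40 and 19.5 CPM in 60% tumors 1 to 7. Controls ran from 7.56 to 12.7 CPM and 40% tumors from 7.68 to 12.7 CPM. Tumors 1, 2, 4 and 7 exceeded all controls, while tumor 5 was below all. The log2 fold change was 0.31 (95% CI -0.19 to 0.81; adjusted p = 0.543, edgeR) over control and 0.42 (95% CI -0.004 to 0.85; adjusted p = 0.359) over 40% tumors.

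*Nfkbie* was at 37.3, 32.8, 31.7, 41.0, 19.1, 25.6 and 39.7 CPM in the 60% tumors, with 5 of 7 above all controls (22.6 to 30.4 CPM) and tumor 5 below all. Its log2 fold change over control was 0.33 ± 0.16 (SE; 95% CI -0.02 to 0.67; adjusted p = 0.330, edgeR). *Birc3* was highest in tumor 7, at 31.8 CPM, and lowest in tumors 5 and 6, at 17.9 and 15.9 CPM. The controls lay at 20.1, 24.6, 16.9 and 23.2 CPM (log2 fold change 0.12, 95% CI -0.20 to 0.44). The estimate for *Birc3* was thus of the opposite sign to that in culture, where it was -0.71. The interval in tumors spans both signs, and the estimate turned negative with the leukocyte score described below. A reversal between culture and tumor is therefore not shown.

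*Nfkbia* and *Tnfaip3* were led by another tumor. Tumor 2 had 160 CPM of *Nfkbia* and 27.1 CPM of *Tnfaip3*, each the highest of its group, and tumor 4 was next, with 133 and 24.4 CPM. The controls ranged from 84.5 to 127 CPM for *Nfkbia* (log2 fold change 0.09, 95% CI -0.25 to 0.42) and from 12.7 to 17.2 CPM for *Tnfaip3* (0.39, 95% CI -0.16 to 0.94). Neither was called.

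The subunit genes and *Bcl3* lay close to the controls. *Nfkb1* lay between 164 and 198 CPM in 60% tumors and between 171 and 190 CPM in control tumors (log2 fold change 0.05, 95% CI -0.09 to 0.19). *Nfkb2* spanned 132 to 187 CPM against 160 to 182 CPM (-0.03, 95% CI -0.20 to 0.15), and *Relb* 34.4 to 54.8 CPM against 40.1 to 49.3 CPM (0.07, 95% CI -0.17 to 0.32). *Bcl3* spanned 27.3 to 48.6 CPM against 31.8 to 44.9 CPM (-0.02, 95% CI -0.35 to 0.31). Of these 4 intervals that of *Nfkb1* was the narrowest and that of *Bcl3* the widest.

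**Figure D3:**
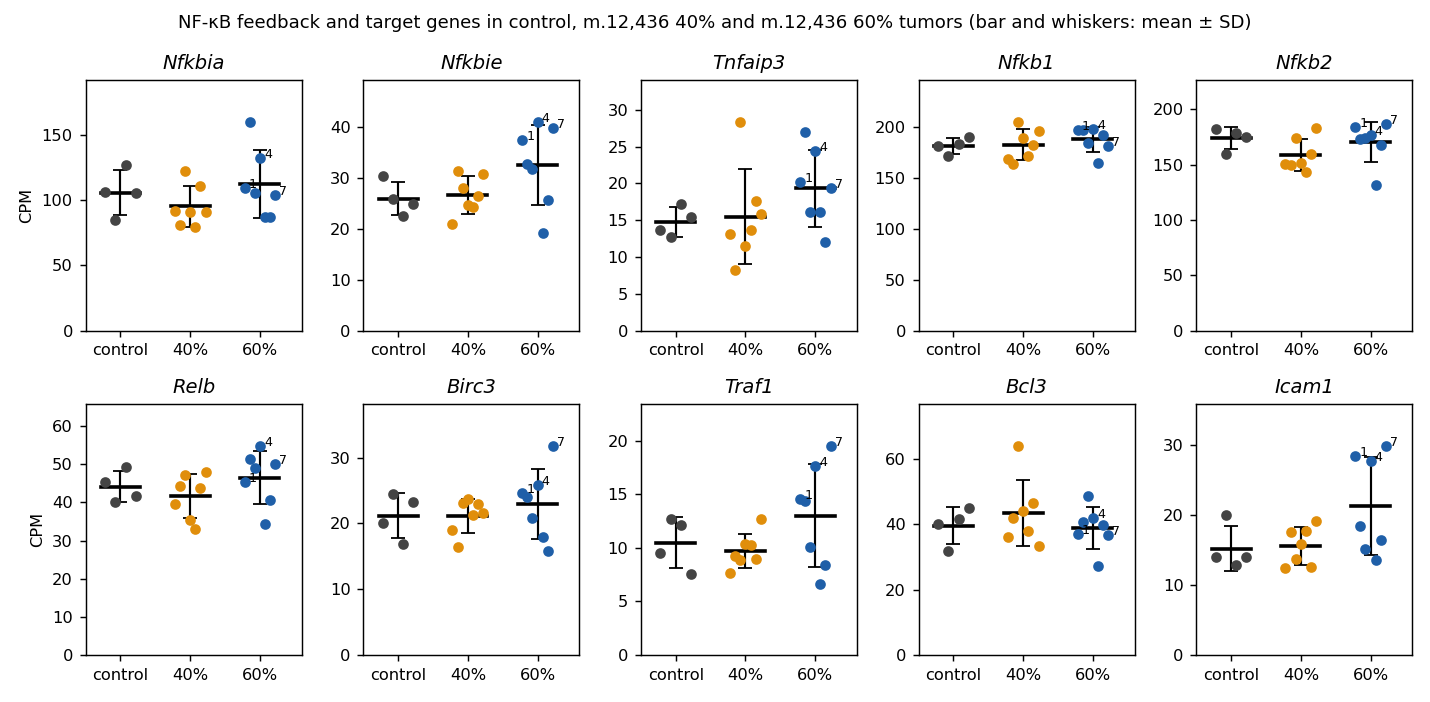
CPM of each gene (vertical axes, from 0) in 4 control, 7 m.12,436 40% and 7 m.12,436 60% tumors; points are tumors, and bars with whiskers are the mean ± SD. Tumors 1, 4 and 7 of the 60% group are numbered: they lie on top for *Icam1*, where the groups still overlap, and for *Traf1*, *Nfkbie* and *Birc3*.

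In m.12,436 40% against control tumors, 0 of the 10 were called by any of these tools and 0% of all genes were by edgeR (5 genes by DESeq2, 0 by limma-voom), with 5.09% of all genes and 0 of the 10 at an unadjusted edgeR p below 0.05. The median of the 10 was 0.004, with 5 positive and 5 negative log2 fold changes from -0.15 (*Nfkbia*) to 0.13 (*Bcl3*), where 51.3% of all genes were positive. Of the 60% and 40% tumors, set against each other, 0 of 10 were called by any of the 3 tools, beside 1.81% of all genes by edgeR. *Icam1* alone had an unadjusted edgeR p below 0.05, as had 14.1% of all genes. Values were positive for 9 of the 10 and the median was 0.20, where 48.9% of all genes were positive. *Bcl3* was the exception (-0.16, 95% CI -0.44 to 0.12). These tumor comparisons share the control tumors or the 60% tumors, so their values are not independent of one another.

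Leukocyte RNA moved with the same tumors. The 6 leukocyte markers summed to 927, 864, 746, 921, 690, 729 and 1079 CPM in 60% tumors 1 to 7, so that tumors 7, 1 and 4 were highest and tumor 5 lowest. Controls ran from 528 to 741 CPM and 40% tumors from 544 to 709 CPM. Among controls, tumor 002 had both the highest marker sum and the highest *Icam1*. All 6 markers had an unadjusted edgeR p below 0.05 for 60% against control tumors (median log2 fold change 0.43). The same held for 60% against 40% tumors (median 0.35), and *Itgb2* was called in both. The T and NK cell markers, each of low count, summed to 34.0, 33.8 and 44.5 CPM in tumors 1, 4 and 7, against 8.13 to 21.1 CPM in the other 4 and 7.64 to 25.7 CPM in controls. Macrophage markers summed to between 859 and 1470 CPM in 60% and between 923 and 1173 CPM in control tumors, and neutrophil markers to 9.81 to 26.8 and 12.8 to 29.6 CPM. The 3 tumors with the highest leukocyte sums, 60% tumors 7, 1 and 4, also held the 3 highest values among all 18 tumors of *Icam1*, *Traf1*, *Nfkbie* and *Birc3*, as the plot against that sum shows. This was not so for the other 6 genes. For *Birc3* the third place was a near tie, with 24.7 CPM in 60% tumor 1 and 24.6 CPM in control tumor 002. The share of all genes with the same pattern was not counted.

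**Figure D4:**
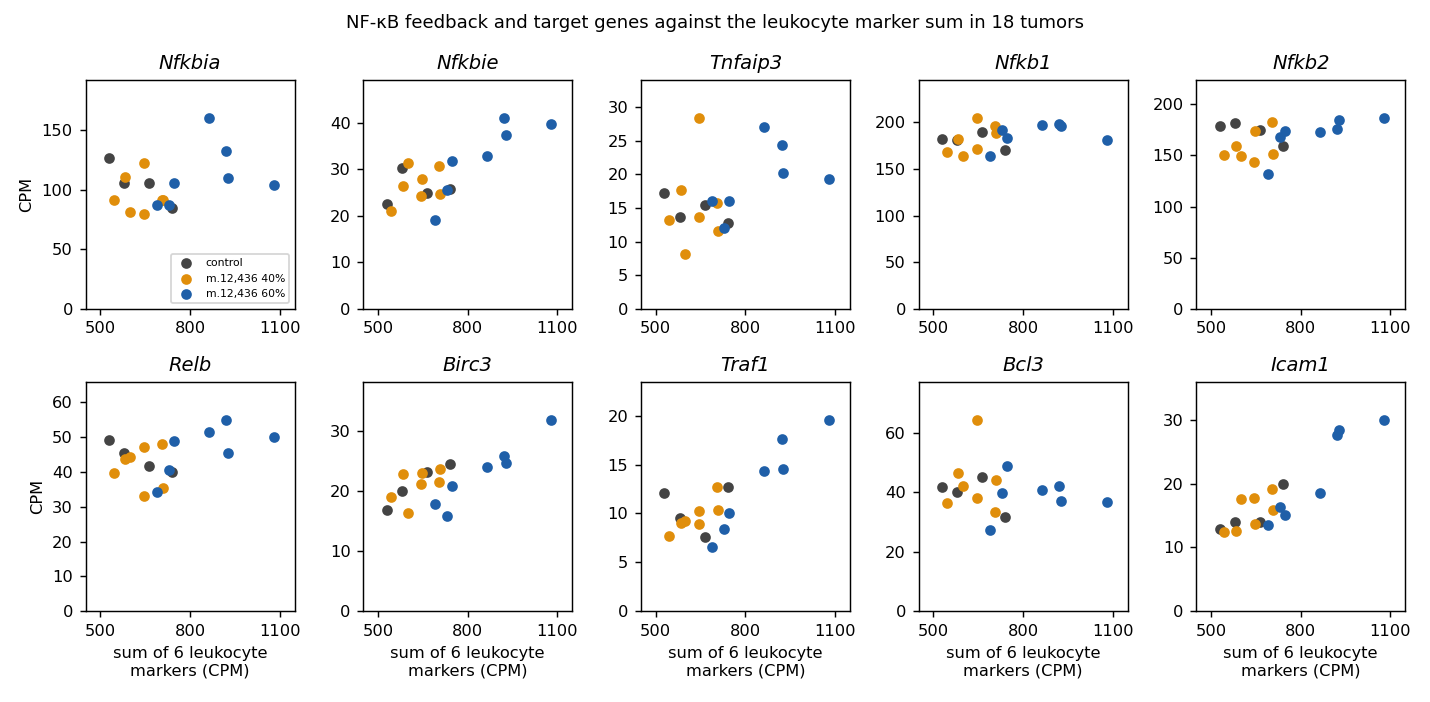
CPM of each gene (vertical axes, from 0) against the summed CPM of 6 leukocyte markers (horizontal axes, from 450) in 18 tumors, coloured by group. The 60% tumors with sums of 921 to 1079 CPM hold the 3 highest values of *Icam1* (27.7 to 29.9 CPM).

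With a leukocyte marker score as a covariate in the fit, the log2 fold change of each of the 10 was lower than without it in all 3 tumor comparisons. For 60% against control tumors the median went from 0.10 to -0.09, and the sign turned for *Icam1* (-0.24), *Traf1* (-0.50), *Birc3* (-0.40), *Nfkbie* (-0.14), *Relb* (-0.05) and *Nfkb1* (-0.04). Of these, only *Birc3* and *Traf1* had an unadjusted edgeR p below 0.05, and neither was called (adjusted p = 0.300 and 0.532). For 60% against 40% tumors the median went from 0.20 to -0.09, with *Birc3* at -0.37 (adjusted p = 0.237, edgeR). *Nfkbia*, *Tnfaip3* and *Relb* stayed above 0 there, at 0.16, 0.06 and 0.04. The score was the mean of the 6 leukocyte markers, which were themselves higher in the 60% tumors. It therefore overlaps with the group, and this fit cannot separate score and group. Over all genes, 7 in place of 374 were called with it for 60% against control tumors. The share of all genes that fell or changed sign was not counted.

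**Figure D5:**
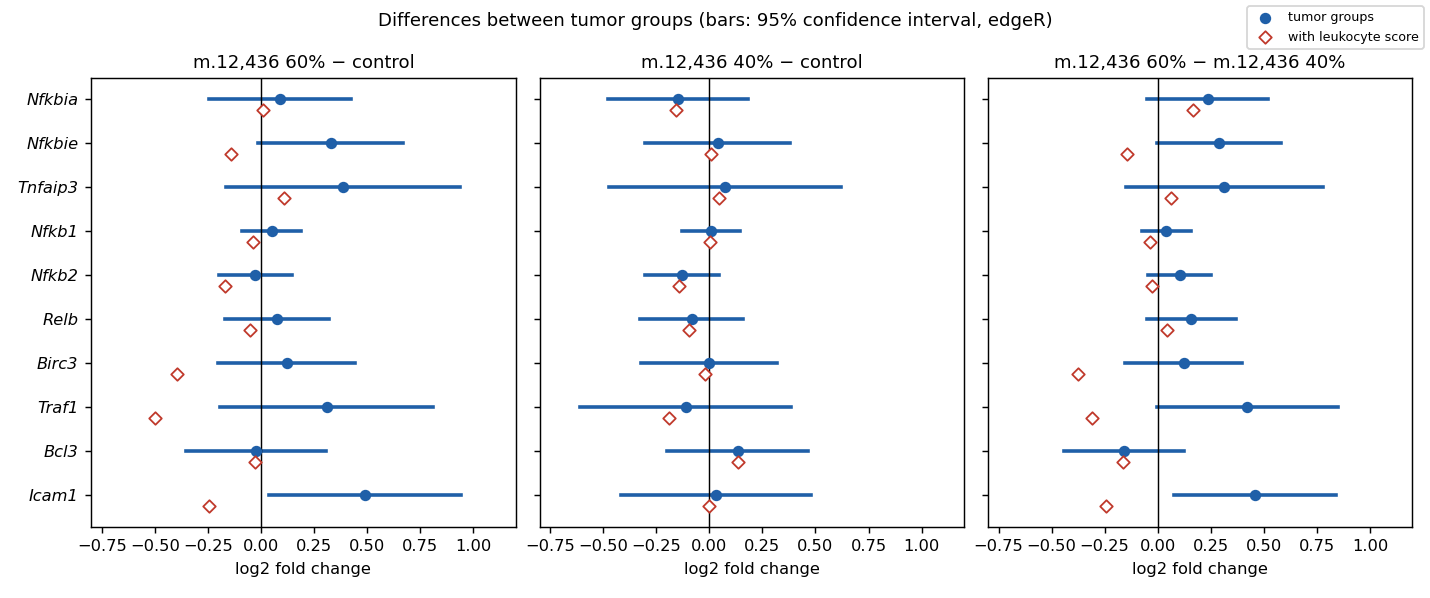
Log2 fold change of each gene (horizontal axes) in the 3 tumor comparisons, with its 95% confidence interval (blue) and the value with the leukocyte score in the fit (open diamonds). Only the *Icam1* intervals for 60% against control and against 40% tumors lie above 0, and neither passed after adjustment.

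Among the 71 further pathway genes, 66 were tested in the tumors. In 60% against control tumors 1 was called, *Tnip2*, which encodes a partner of the *Tnfaip3* product that restrains NF-κB. It was 22.2 ± 1.41 CPM in 60% (n = 7) and 17.2 ± 2.62 CPM in control tumors (SD, n = 4), a log2 fold change of 0.37 ± 0.09 (SE; adjusted p = 0.0496, edgeR). This is 1 gene of 66, beside 2.31% of all genes called. At an unadjusted edgeR p below 0.05 there were 12 of the 66, beside 16.3% of all genes. The call was lost without control tumor 001 (0.37) or 003 (0.28), and with the leukocyte score in the fit (0.24; adjusted p = 0.571, edgeR). In the 40% tumors it stood at 19.6 ± 1.50 CPM (SD, n = 7).

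For the other roles, the gene with the smallest p was given. *Tlr2*, a receptor for bacterial lipoproteins, had 0.53 (adjusted p = 0.130, edgeR). *Irf1*, an NF-κB and interferon target, had 0.47 (0.134), and *Rel* had 0.45 (0.154). *Traf2* had -0.11 (0.408) and the ligand gene *Ltb* 0.73 (0.410). None of the 18 adaptors and kinases, the machinery that carries the signal to the IκB proteins, had an unadjusted p below 0.05, and their log2 fold changes lay between -0.11 and 0.13.

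In 60% against 40% tumors 3 of the 66, all targets, were called higher and 0 lower, beside 1.81% of all genes (293 genes). With the leukocyte score 21 genes were called in all. *Ccl5*, a chemokine of activated lymphocytes and macrophages, was at 7.06 ± 3.62 and 2.69 ± 1.41 CPM (log2 fold change 1.39; adjusted p = 0.0926, edgeR). *Irf1* was at 140 ± 28.5 and 102 ± 15.0 CPM (0.47; 0.0888), and *Bcl2a1b* at 17.5 ± 4.15 and 10.9 ± 2.54 CPM (0.69; 0.0613; SD, n = 7 each). *Bcl2a1b* is 1 of several near-identical paralogs between which reads can be split, so its value is uncertain. With the leukocyte score none of the 3 was called, at -0.08 for *Ccl5*, 0.01 for *Irf1* and 0.16 for *Bcl2a1b* (adjusted p = 0.954, 0.991 and 0.843, edgeR). Leaving out 60% tumor 1, 2, 4 or 7, or 40% tumor 1, 2 or 6, also ended all 3 calls. Leaving out 40% tumor 5 ended those of *Ccl5* and *Irf1*, and 60% tumor 3 that of *Irf1*. In 40% against control tumors 0 of the 66 were called, with 2 at an unadjusted edgeR p below 0.05.

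The effect in culture was then set against that in tumors in a single fit over 26 libraries, without the culture numbers as a block. For 0 of the 8 genes that could be tested in culture was the difference called by edgeR, DESeq2 or limma-voom, beside 0.169% of all 16545 genes. *Birc3* came closest, at -0.85 ± 0.27 (SE; 95% CI -1.41 to -0.29; adjusted p = 0.414, edgeR), the culture effect being the lower, and it alone had an unadjusted p below 0.05, as had 6.50% of all genes. The other 7 lay between -0.54 (*Bcl3*) and 0.001 (*Nfkb1*), with intervals that include 0. *Traf1* and *Icam1* entered this fit only through the tumors, and with so few reads in culture it could say little of them, as the interval of *Icam1*, -4.84 to 3.89, shows. With the culture numbers as a block, 296 genes in place of 28 were called, and again none of the 8. *Birc3* was then at -0.86 (adjusted p = 0.171, edgeR).

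Within the tumor groups most pairs of the 10 genes varied in the same direction. After each group's mean was taken away, 43 of the 45 pairs had a positive Pearson r over the 18 tumors, with a median of 0.49, and 9 pairs were over 0.7. *Traf1* and *Icam1* (0.83), *Nfkbia* and *Tnfaip3* (0.82) and *Nfkb2* and *Relb* (0.80) were the closest, whereas *Bcl3* and *Icam1* had the lowest value (-0.18). Each tumor is 1 library with its own share of host cells, so these values are given as a description. The same figures were not computed over pairs of all genes, so the count cannot be called particular to these 10.

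The 3 genes most like each of the 10 by the same measure, among 12317 genes, differed from gene to gene. *Birc3* was nearest to *Sh2d2a*, *Trbc2* and *Lag3* (0.93 to 0.94), the latter pair being T cell genes. *Traf1* was nearest to *Rhoh*, *Cnp* and *Fcer1g* (0.92 to 0.94), and *Icam1* to *Vav1*, *Unc93b1* and *Nfatc2* (0.91 to 0.92). *Nfkbie* was nearest to *Psmb10*, *Il15ra* and *Spi1* (0.89 to 0.92). *Nfkbia* was nearest to *Basp1*, *Gadd45b* and *Pfkfb3* (0.86 to 0.90), *Tnfaip3* to *Osm*, *Mxd1* and *Vhl* (0.83 to 0.85), and *Bcl3* to *Sbno2*, *Crem* and *Homer1* (0.84 to 0.87). *Relb* was nearest to *Il1rn*, *Acbd6* and *Ddx10* (0.87 to 0.89), *Nfkb2* to *Wfdc17*, *Hivep3* and *Rpl14-ps1* (0.83 to 0.87), and *Nfkb1* to *Rps3a3*, *Jun* and *Cd14* (0.78 to 0.79).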

How the data were processed

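Per the labels and the study's methods, RNA extraction, library construction and sequencing were done by a company. The authors aligned reads to GRCm39 with STAR, counted them with featureCounts against an Ensembl annotation and deposited raw counts per gene, without normalization; the strand setting is not given in the sources used here. *Nfkbia*, *Nfkb1*, *Nfkb2*, *Traf1*, *Bcl3* and *Icam1* overlap other annotated genes, so reads of these neighbours could not be told apart. Of 47 columns, 26 were used. They were matched to samples by their names together with the numbering of the labels and the headings of the study's source data. The other 21 were not used.

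Symbols came from GENCODE vM39 (56017 of 56748 genes). edgeR 4.0.16 in R 4.3.3 was used with TMM, filterByExpr and a robust quasi-likelihood fit. Cells, tumors, controls of both, and all 26 libraries were fitted separately; genes were called at an adjusted p below 0.1, as in the study. DESeq2 1.42.0, limma-voom (limma 3.58.1), other filters, a replicate block, a leukocyte score and leaving out replicates were tried as alternatives; leaving out m.12,436 tumors, and blocking the cultures in the fit over all libraries, were chosen after seeing the data. Scripts were tested on simulated counts. The block was used for cultures because same-numbered cultures deviated together (4 pairs, r from 0.718 to 0.832); tumor numbers did not (mean r from -0.156 to -0.006). The study states in general that experiments had biological replicates, and a figure legend counts individual tumors per genotype for its bulk tumor RNA. The labels do not say how these cultures or tumors were replicated, and to that extent p-values measure the spread between these samples. The 10 genes and the other lists were chosen with earlier results of these data known. The text names the 10 genes, further pathway genes that passed the threshold in a mutant comparison or had the smallest p of their role, ligands, receptors and subunits with their level, and the 3 genes most like each. CPM are comparable within cultures or within tumors; the per-kb values use 1 scale.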

Additional observations from a re-analysis of the deposited data

Results flagged for a closer look

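Each of 46 sets of values (a gene in a group of 4 to 7 libraries, leaving out *Traf1* and *Icam1* in culture) was searched for a library far from the rest by Dixon's ratio, the gap to the nearest library over the range; chance alone gives about 1 in 20. In all 6 stood out, with no explanation tested. In culture, *Tnfaip3* in m.11,944 60% replicate 3 (6.10 CPM, next 2.93) had a ratio of 0.847. *Bcl3* was highest in replicate 1 of m.11,944 60% cells (0.745 CPM, ratio 0.867) and of control cells (0.841 CPM, ratio 0.952). In tumors, *Nfkb2* was lowest in m.12,436 60% tumor 5 (132 CPM, next 168; ratio 0.656), *Bcl3* highest in m.12,436 40% tumor 3 (64.1 CPM, next 46.5; ratio 0.571) and *Icam1* highest in control tumor 002 (20.0 CPM, next 14.0; ratio 0.849). Without that tumor the log2 fold change of *Icam1* in m.12,436 60% against control tumors was 0.66, and no gene of the 10 was called.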

How the results depend on the processing

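The counts of called genes among the 10 were the same under every alternative run: 0 in the culture comparison, the 3 tumor comparisons and the contrast of culture and tumor effects (where 8 genes could be tested in culture), and all those tested (8 with at least 10 counts in every sample, otherwise 10) in control tumors against control cells. Signs were less steady, the cause was not tested, and every value is a log2 fold change. With the leukocyte score, 60% against control tumors gave -0.14 for *Nfkbie*, -0.0375 for *Nfkb1*, -0.0498 for *Relb*, -0.40 for *Birc3*, -0.50 for *Traf1* and -0.24 for *Icam1*; 60% against 40% tumors gave -0.15 for *Nfkbie*, -0.0386 for *Nfkb1*, -0.0292 for *Nfkb2*, -0.37 for *Birc3*, -0.31 for *Traf1* and -0.24 for *Icam1*; and 40% against control tumors gave -0.00163 for *Icam1*. *Birc3* in 40% against control tumors turned positive with DESeq2 (0.0052), limma-voom (0.011), DESeq2 size factors (0.0054), no filter (0.0022), at least 10 counts (0.0064) and a replicate block (0.0264). In culture against tumor effects, *Nfkb1* turned with DESeq2 (-0.0084) and its size factors (-0.0083), *Nfkbia* with limma-voom (0.0424) and no filter (8.98e-05), and *Nfkbie* with limma-voom (0.0149).

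Tumor numbers share only a number; as a block they gave 178 called genes in place of 374 for 60% against control tumors, turned *Bcl3* there to 0.0736, and changed no call among the 10. In culture the block gave 919 in place of 5 and changed no call among the 10 either. A block of the cultures alone in the contrast of culture and tumor effects, chosen after seeing the data, gave 296 in place of 28 and turned *Nfkbia* (0.0325) and *Nfkb1* (-0.000502).

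One replicate at a time was left out; for the m.12,436 tumors this was chosen after seeing the data. It gave, in culture, -0.16 to 0.38 for *Nfkbia*, -0.38 to 0.48 for *Tnfaip3*, -0.29 to 0.0114 for *Nfkb2* and -0.49 to 0.0246 for *Relb*. In 60% against control tumors it gave -0.11 to 0.0533 for *Bcl3*, -0.0179 to 0.20 for *Nfkbia* and -0.0586 to 0.0310 for *Nfkb2*. *Nfkbia* turned without 60% tumor 2 and *Nfkb2* without 60% tumor 5. In 40% against control tumors the ranges were -0.0136 to 0.12 for *Nfkbie*, -0.13 to 0.18 for *Tnfaip3* (negative only without 40% tumor 3), -0.0095 to 0.0451 for *Nfkb1*, -0.0886 to 0.0879 for *Birc3*, -0.23 to 0.0059 for *Traf1* and -0.0334 to 0.20 for *Icam1*. For culture against tumor effects they were -0.28 to 0.28 (*Nfkbia*), -0.21 to 0.0670 (*Nfkbie*), -0.80 to 0.0675 (*Tnfaip3*), -0.0436 to 0.0530 (*Nfkb1*), -0.30 to 0.0067 (*Nfkb2*) and -2.08 to 1.13 (*Icam1*). No sign turned in 60% against 40% tumors, where *Icam1* ran from 0.36 to 0.54 and *Birc3* from 0.0247 to 0.19. Values without a call that kept their sign and still moved by over 1.5 times include *Birc3* in 60% against control tumors (0.0284 to 0.21), *Nfkbie* in culture (0.14 to 0.42) and *Traf1* in culture against tumor effects (-1.66 to -0.40).

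Counts over all genes moved more. In culture DESeq2 called 84 and a filter of at least 10 counts left 0, as did leaving out any 1 culture. For 60% against control tumors DESeq2 called 1056, a threshold of 0.05 left 150, the 2 groups alone gave 943 and the leukocyte score 7; leaving out control tumor 001, 002, 003 or 004 gave 125, 716, 66 or 724, and 60% tumor 1, 3 or 4 gave 186, 239 or 207. For 60% against 40% tumors the counts were 744 (DESeq2), 178 (no filter), 113 (threshold of 0.05) and 21 (leukocyte score), and 108 to 452 with 1 tumor left out. For culture against tumor effects they were 108 (DESeq2), 9 (limma-voom), 11 (at least 10 counts), 17 (threshold of 0.05) and, leaving out 1 library, 13 to 257. Of the further pathway genes, *Tnip2* lost its call with the block (adjusted p = 0.130, edgeR), and *Ccl5* and *Irf1* lost theirs with the block, with the 2 groups alone and with no filter, which also ended that of *Bcl2a1b* (0.114). *Birc3*, *Bcl3* and *Traf1* in culture rest on at most 44, 23 and 21 reads a library, which limits what could be detected there.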
